A study of Mus musculus with 62 samples.

Results

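The pericentromeric ends of the mouse autosomes were taken as the listed CUT&Tag sites on chromosomes 1 to 19 that start below 5 Mb on the mm10 build. The first 3 Mb of each mouse chromosome are unassembled, so these sites lie in the first stretch of readable sequence beside the centromere. Over 14 tables of compared sites, 25086 of 1709082 autosomal sites (1.47%) met this rule. They lie on 37.5 Mb of assembled sequence, against 2358 Mb for the remainder of the autosomes. One further table, H3K27me3 in Daxx-KO against WT at 8 w.p.i., was not used, since the rule leaves it out.

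HSPCs, lineage-negative c-Kit+ cells enriched from bone marrow, were taken from C57BL/6 mice at 3, 8 and 24 w.p.i., the weeks after Cre was switched on. CUT&Tag maps where an antibody binds on chromatin, here against the histone variant H3.3, the transcription factor Pu.1 and the marks H3K27ac, H3K9me3 and H3K27me3. WT mice were Daxx +/+ Cre +/-, Daxx-KO mice were Daxx F/F Cre +/-, and DKO mice were F/F for both Daxx and Pu.1 with Cre +/-. Every group, WT included, carried Mx1Cre and received pI:pC, an interferon inducer, so the comparisons are between genotypes and not between treated and untreated mice. Mx1Cre acts in many interferon-responsive cells and not in HSPCs alone. The floxed Daxx allele was made on C57BL/6N and the Cre and Pu.1 F/F lines on C57BL/6J. Mice of both sexes were used, and the labels give no ages of the animals. The 3 w.p.i. comparisons of H3.3, Pu.1, H3K27ac and H3K9me3 each set 2 libraries of Daxx-KO mice against 2 of WT mice. The 8 w.p.i. comparisons of H3K9me3 and H3K27me3 used 3 libraries per genotype. The 24 w.p.i. comparisons covered all 5 targets, again with 2 libraries per genotype.

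Mouse chromosomes have their centromere at one end, next to the short telomere. Beside the centromere lie long arrays of major satellite, a tandem repeat that is normally packed into constitutive heterochromatin marked by H3K9me3. Daxx is the chaperone that, with the remodeller Atrx, places H3.3 into heterochromatin, including pericentromeric satellite and telomeric repeats. Pu.1 (encoded by Spi1) is an Ets-family transcription factor that drives myeloid differentiation. H3K27ac marks active promoters and enhancers, and H3K27me3 is the mark of Polycomb repression.

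Sequences from the reference genome (GRCm38, the mm10 assembly) are shown for the repeats and sites that held the largest counts. The first pair are neighbouring copies of the 234-base repeat at the start of chromosome 9, the length of the mouse major satellite unit, at chr9:3037001-3037234 and chr9:3037235-3037468 on the plus strand. Capitals mark the 17 bases at which these copies differ, and the copies were 92.7% identical.
chr9 satellite copy 1: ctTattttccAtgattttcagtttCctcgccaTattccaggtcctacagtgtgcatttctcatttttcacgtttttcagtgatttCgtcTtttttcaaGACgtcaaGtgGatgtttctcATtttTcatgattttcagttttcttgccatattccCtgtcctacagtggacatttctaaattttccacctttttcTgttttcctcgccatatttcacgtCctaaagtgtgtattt
chr9 satellite copy 2: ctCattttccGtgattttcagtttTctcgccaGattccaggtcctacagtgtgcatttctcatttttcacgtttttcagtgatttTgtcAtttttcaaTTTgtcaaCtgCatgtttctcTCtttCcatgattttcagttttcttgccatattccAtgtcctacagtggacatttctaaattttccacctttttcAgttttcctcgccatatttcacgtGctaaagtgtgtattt

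The second pair is from an array of 74-base units on chromosome 10, at chr10:3116247-3116320 and chr10:3116321-3116394 on the plus strand. These copies were the first pair in the array with the fewest differences, and they were identical, so no base is in capitals.
chr10 array copy 1: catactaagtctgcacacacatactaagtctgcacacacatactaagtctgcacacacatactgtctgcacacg
chr10 array copy 2: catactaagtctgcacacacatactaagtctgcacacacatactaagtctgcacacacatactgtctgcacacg

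The third pair is from an array of 44-base units in an intron of Cenpo, a gene for a centromere protein, at chr12:4219951-4219994 and chr12:4219995-4220038 on the plus strand. Capitals mark the single base that differs.
Cenpo array copy 1: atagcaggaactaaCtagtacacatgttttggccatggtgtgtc
Cenpo array copy 2: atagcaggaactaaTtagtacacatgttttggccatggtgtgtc

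The fourth sequence is the middle 200 bases of an intergenic site of chromosome 12, chr12:3109526-3109725 on the plus strand. Listed sites that overlap these bases gave the largest gain in several comparisons. The fifth is the 250 bases upstream of a start of Cdk6, a cell-cycle kinase of blood progenitors, at chr5:3343643-3343892 on the plus strand, taken from RefSeq. Capitals mark CpG dinucleotides in both, 4 in the first and 22 in the second. The median over 32851 RefSeq promoters was 6 in the same 250 bases, and 14.8% of the promoters had at least as many as Cdk6.
chr12 site: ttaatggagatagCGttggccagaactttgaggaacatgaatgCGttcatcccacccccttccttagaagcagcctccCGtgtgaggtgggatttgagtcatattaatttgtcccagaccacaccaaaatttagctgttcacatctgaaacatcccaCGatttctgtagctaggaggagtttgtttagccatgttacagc
Cdk6 upstream: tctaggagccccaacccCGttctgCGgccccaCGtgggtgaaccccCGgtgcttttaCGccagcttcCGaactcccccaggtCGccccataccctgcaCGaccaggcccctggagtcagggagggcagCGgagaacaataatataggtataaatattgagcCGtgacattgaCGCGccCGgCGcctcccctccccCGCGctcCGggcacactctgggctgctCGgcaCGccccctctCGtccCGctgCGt

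A site is in a table because it passed a test run by the authors, so no test was made across sites, and intervals on shares of sites cover counting only. A site was called higher or lower by the means of the authors' normalized counts over the libraries of each genotype. Reads per 600-bp window ranged from 0.2 to 33.78 over the 54 libraries used. The WT libraries for H3.3 at 3 w.p.i. were unequal in depth, 22.88 and 3.06 reads per window, as were those for Pu.1. At the Daxx gene, a Pu.1 site inside the gene at 24 w.p.i. (chr17:33912801-33913750) had counts of 0 and 0 in Daxx-KO against 63.3 and 44.2 in WT. An H3K27ac site there (chr17:33909801-33913400) had 113 and 93.7 against 858 and 368, so the Pu.1 and H3K27ac libraries at 24 w.p.i. followed their genotype labels.

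At 3 w.p.i. the ends differed from the autosomes as a whole for H3.3 and Pu.1. For H3.3, 1575 of 2275 sites (69.2%, 95% interval 67.3 to 71.1) were higher in Daxx-KO, where 58.4% of all listed autosomal sites were higher. For Pu.1, 1664 of 2444 sites (68.1%, 66.2 to 69.9) were higher, where 54.9% of all listed autosomal sites were higher. Both shares lay above those of the neighbouring sites from 5 to 10 Mb, 61.4% for H3.3 and 60.6% for Pu.1. The sequence just past 5 Mb was like the ends, however. Of sites 2 to 2.5 Mb from the first assembled base, 69.2% were higher for H3.3 and 65.0% for Pu.1. The difference was not spread evenly, as the share exceeded that of the same chromosome on 11 of 19 chromosomes for H3.3 and on 15 of 19 for Pu.1. The median difference over chromosomes was 1.18 percentage points for H3.3 and 7.09 for Pu.1. H3K27ac moved little, with 767 of 1717 sites (44.7%) higher against 41.3% of all listed sites.

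H3K9me3, the heterochromatin mark itself, went the other way at 3 w.p.i. In all, 455 of 694 sites (65.6%, 61.9 to 69.0) were higher in Daxx-KO, where 78.9% of all listed sites were higher. The libraries of the genotypes did not overlap at 692 of these sites (99.7%, and 99.6% of all listed sites). At 8 w.p.i. the contrast was larger. Of 668 sites, 284 (42.5%, 38.8 to 46.3) were higher in Daxx-KO, where 66.0% of all listed sites were higher, so that the ends held more lower than higher sites while the autosomes as a whole did not. The genotypes did not overlap at 596 of them (89.2%, and 89.0% of all listed sites). The share fell short of that of the same chromosome on 17 of 19 chromosomes. Sites from 5 to 10 Mb, with 47.9% higher, were nearer to the ends than to the 73.8% of sites in the last 5 Mb of the chromosomes. By 24 w.p.i. the difference was small and of opposite sign, with 1037 of 1990 sites (52.1%, 49.9 to 54.3) higher against 48.1% of all listed sites.

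At 8 w.p.i. in DKO the ends differed from all listed sites in 2 of the 4 comparisons. For H3K9me3, 519 of 621 sites (83.6%, 80.5 to 86.3) were higher in DKO than in WT, where 81.2% of all listed sites were higher, a difference within the interval, and the share exceeded that of the same chromosome on 9 of 19 chromosomes. Against Daxx-KO, 471 of 546 (86.3%) were higher, where 72.9% of all listed sites were higher, and 381 of the 546 did not overlap between genotypes (69.8%, and 69.6% of all listed sites). The sites from 5 to 10 Mb lay between, with 78.9% higher, and those of the last 5 Mb had 54.6%. These comparisons share their DKO libraries, and they share WT or Daxx-KO libraries with the comparison above. The DKO libraries were uneven in depth, from 0.2 to 3.29 reads per window, and the genotypes did not overlap at only 415 of the 621 sites against WT (66.8%, and 65.6% of all listed autosomal sites). For H3K27me3, 512 of 698 sites (73.4%, 70.0 to 76.5) were higher in DKO than in WT, where 55.1% of all listed sites were higher, and 604 did not overlap (86.5%, and 89.4% of all listed sites). Against Daxx-KO the share was 63.6% (430 of 676, 59.9 to 67.2), slightly below the 65.0% of all listed sites and within the interval.

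At 24 w.p.i. the H3.3, Pu.1 and H3K27ac sites of the ends followed the rest of the autosomes. The shares higher in Daxx-KO were 52.6% for H3.3 (2055 of 3909), 48.7% for Pu.1 (1914 of 3929) and 43.9% for H3K27ac (1450 of 3303). Over all listed sites they were 52.6%, 48.2% and 42.5%. H3K27me3 was the exception, with 507 of 1616 sites (31.4%, 29.2 to 33.7) higher in Daxx-KO, where 41.2% of all listed sites were higher. Its share was below that of the same chromosome on 14 of the 18 chromosomes with a site.

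**Figure D1:**
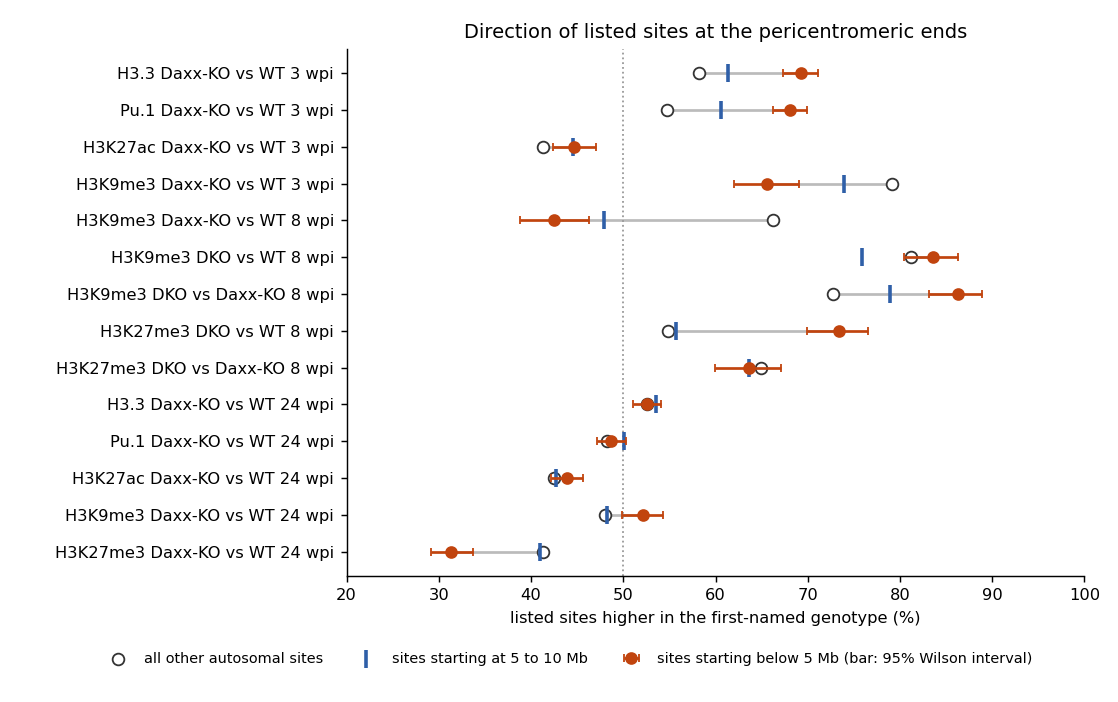
Share of listed sites (%, x axis) whose mean count was higher in the first-named genotype, for each of the 14 comparisons (y axis). Filled points with 95% Wilson intervals are the sites below 5 Mb, blue ticks the sites from 5 to 10 Mb and open points all other autosomal sites. The ends lie right of the rest for H3.3 and Pu.1 at 3 w.p.i. and for H3K27me3 in DKO against WT, and left of it for H3K9me3 in Daxx-KO at 3 and 8 w.p.i. and H3K27me3 at 24 w.p.i.

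The 5 Mb limit did not mark a step in these shares. The first assembled base lies near 3 Mb, so in the distances below that limit falls near 2 Mb. For H3.3 at 3 w.p.i., the bins of 0.5 Mb from the first assembled base held 67.8 to 73.9% higher sites over the first 4.5 Mb of sequence. The next bin fell to 55.6%, and a minimum of 46.4% came at 6 to 6.5 Mb. Pu.1 followed the same course, from 71.9% in the first bin to 47.8% at 6 to 6.5 Mb. H3K9me3 in Daxx-KO at 8 w.p.i. stayed between 37.8 and 59.8% over the first 10 Mb of sequence, below its value over all autosomes in every bin. H3K27me3 at 24 w.p.i. was lowest in the first 0.5 Mb, where 20.6% of 354 sites were higher.

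**Figure D2:**
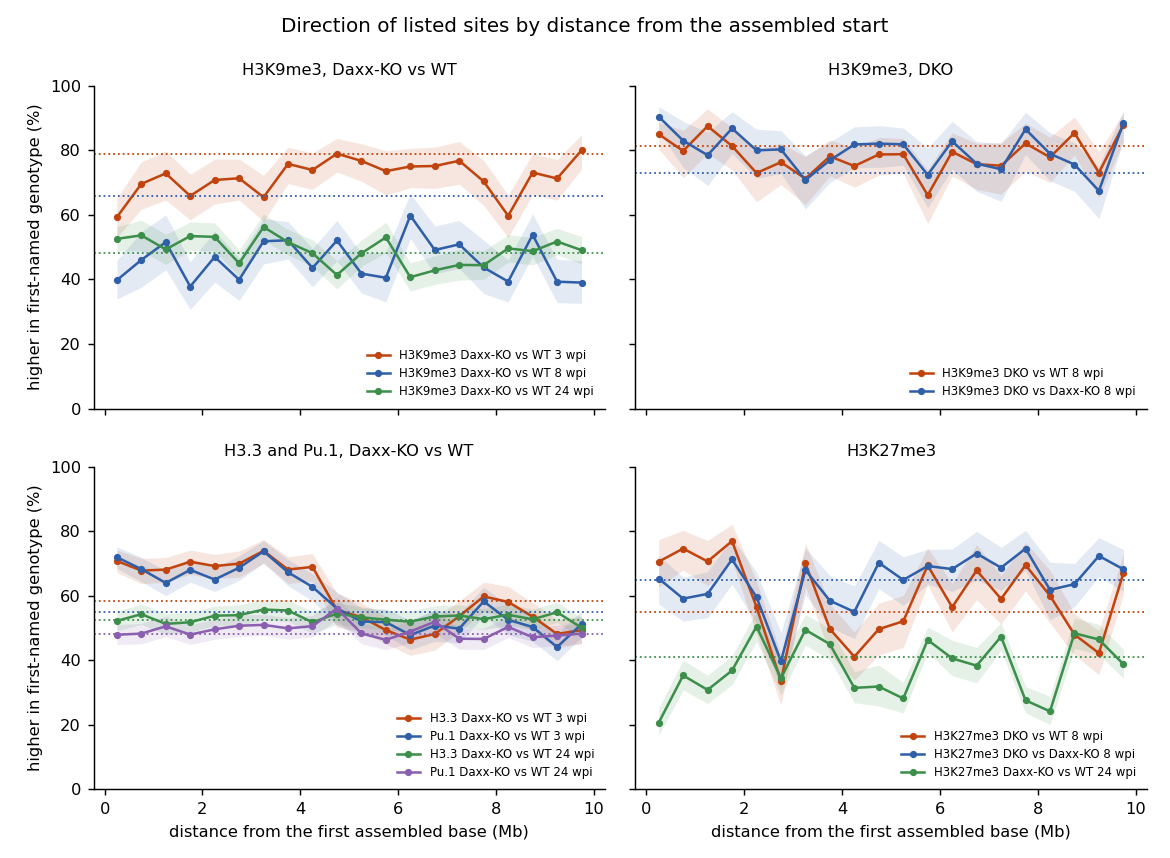
Share of listed sites higher in the first-named genotype (%, y axis) against the distance from the first assembled base in bins of 0.5 Mb (x axis), with all autosomes pooled. Lines are comparisons, bands are 95% Wilson intervals and dotted lines the share over all listed autosomal sites. H3.3 and Pu.1 at 3 w.p.i. run above their dotted lines over the first 4.5 Mb, and H3K9me3 in Daxx-KO at 8 w.p.i. runs below its line throughout.

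Apart from H3K27ac, no target was clearly denser in listed sites at the ends than in the rest. Per assembled Mb, the density of sites at the ends was 1.03 times that of the rest for H3.3 at 3 w.p.i. and 0.997 times for Pu.1. It was lower for H3K9me3, at 0.771 times at 3 w.p.i., 0.651 times in Daxx-KO against WT at 8 w.p.i. and 0.843 times at 24 w.p.i. H3K27me3 ranged from 0.768 to 0.773 times. H3K27ac was slightly denser, at 1.08 times at 3 w.p.i. and 1.09 times at 24 w.p.i. The sequence from 5 to 10 Mb, chosen after seeing the data, gave another order. Sites per Mb were 60.7 at the ends and 49.7 there for H3.3 at 3 w.p.i., and 65.2 and 54.8 for Pu.1. H3K27me3 was also denser at the ends than there, with 43.1 and 39.1 at 24 w.p.i. H3K9me3 in Daxx-KO against WT was sparser, with 18.5 and 20.2 at 3 w.p.i., 17.8 and 22.1 at 8 w.p.i., and 53.1 and 55.7 at 24 w.p.i. The density of a list of passed sites depends on depth as well as on the mark.

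Each library gives a share that does not depend on its normalization constant, namely the part of its counts over all listed autosomal sites that lies below 5 Mb. The sites were listed for differing between these same libraries, so a gap between genotypes in this share is a description of the list and was given no test. The share also depends on the list, as the WT libraries for H3K9me3 at 8 w.p.i. had a mean share of 1.58% over the sites listed against Daxx-KO and 7.35% over those listed against DKO. For H3.3 at 3 w.p.i. the Daxx-KO libraries had shares of 4.89 and 4.51%, and the WT libraries 2.22 and 2.78%. For Pu.1 it was 4.41 and 4.98% against 2.20 and 2.61%. The genotypes did not overlap for either, and the mean share was 1.88 times that of WT for H3.3 and 1.95 times for Pu.1. Much of this lay in 1 block of satellite on chromosome 9, described below. Without the block the shares were 2.57 and 2.70% against 1.94 and 1.98% for H3.3, 1.34 times WT, and the ratio for Pu.1 was 1.38. For H3K27ac it was 2.12 and 2.15% against 1.85 and 1.86%. For H3K9me3 the order was reversed, with 9.21 and 9.72% in Daxx-KO against 13.6 and 12.7% in WT. Without the block the H3K9me3 means were 2.41 and 3.16%, so that the difference of -3.69 percentage points became -0.751.

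At 8 w.p.i. the H3K9me3 share was 0.910, 0.842 and 0.766% in Daxx-KO against 1.43, 1.53 and 1.8% in WT. All 3 Daxx-KO libraries lay below all 3 WT libraries, with a mean of 0.839% ± 0.0717 (SD, n = 3) against 1.58% ± 0.190 (n = 3), over sites of which most at the ends were listed as lower. DKO against WT gave 5.11, 6.75 and 11.7% against 6.33, 8.05 and 7.67%, so the genotypes overlapped, and those of DKO against Daxx-KO overlapped too. For H3K27me3 the share was 1.24, 1.8 and 2.18% in DKO and 1.21, 1.20 and 1.15% in WT, without overlap. The lowest DKO library was close to WT, and the difference of 0.555 percentage points was 0.335 without DKO 3 and 0.805 without DKO 1.

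At 24 w.p.i. the shares were close between genotypes for H3.3, at 1.69 and 1.68% against 1.74 and 1.75%, and for Pu.1, at 1.95 and 1.94% against 1.87 and 1.94%. H3K27me3 was lower in Daxx-KO, at 1.14 and 1.17% against 1.32 and 1.30%. H3K27ac was lower too, with means of 2.23 and 2.45% and no overlap, but without the satellite block the means were 2.01 and 1.88%, the other way round. H3K9me3 reached 20.9 and 17.4% in Daxx-KO against 21.1 and 22.3% in WT. The difference of -2.53 percentage points was -0.821 without the library Daxx-KO 2, and -4.25 without Daxx-KO 1. Most of the share came from the satellite block, and without it the H3K9me3 shares were 2.27 and 2.17% against 1.95 and 1.98%, so that the order of the genotypes turned.

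**Figure D3:**
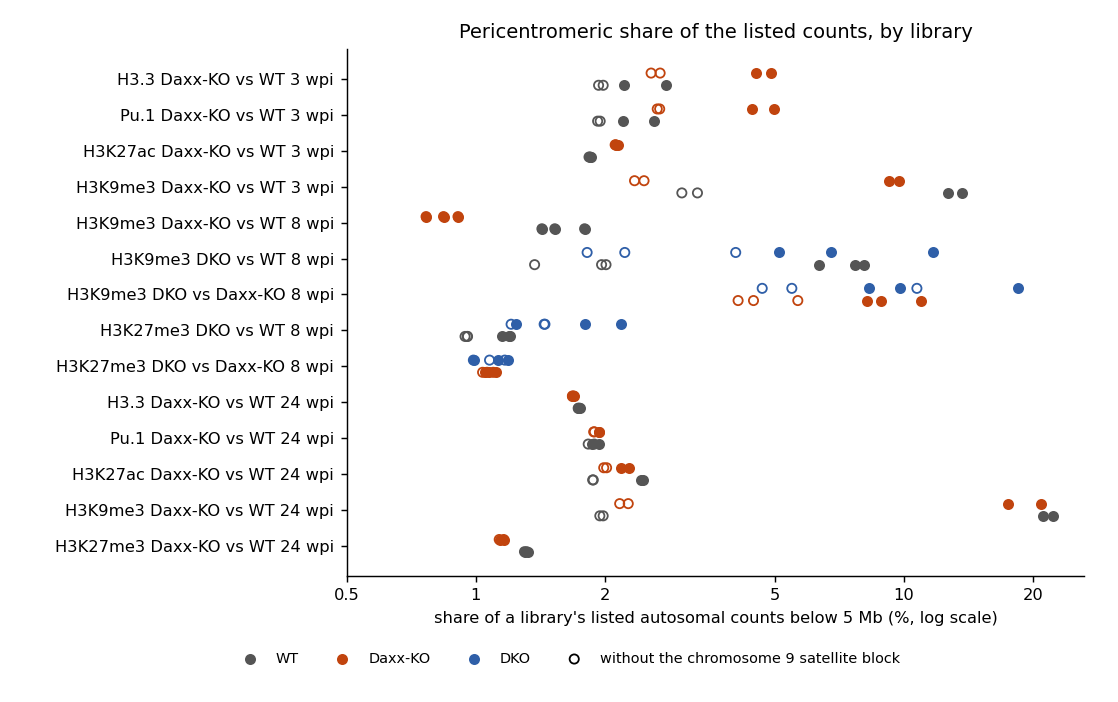
Share of each library's listed autosomal counts that lies below 5 Mb (%, x axis, log scale), for each comparison (y axis). Filled points are libraries coloured by genotype, and open points are the same libraries without the satellite block of chromosome 9. At 3 w.p.i. the Daxx-KO libraries lie right of WT for H3.3 and Pu.1 and left of WT for H3K9me3, with and without the block.

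The largest counts of the ends came from the start of chromosome 9. The first 38 kb of its assembled sequence (chr9:3000001-3038000) is an array with the 234-base period shown above. It was 96.3% repeat-masked with a GC content of 34.9%, and the annotation places several predicted protein-coding genes, among them Gm10721 and Gm10719, and the lincRNA Gm26870 on it. Reads from the satellite arrays of other chromosomes, which are not assembled, may map here. Where the reads counted in this block come from was not tested.

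At 3 w.p.i. all 12 H3.3 sites of the block were higher in Daxx-KO. Their summed counts were 194235 and 154381 in Daxx-KO against 19063 and 49423 in WT, a ratio of the means of 5.09. All 13 Pu.1 sites were higher too, with sums of 171602 and 225722 against 22257 and 51576, a ratio of 5.38. The WT libraries were far apart for both targets, and the deeper of them, WT 1, had the lower sum. The H3K9me3 sites were all lower, 11 of 11, with sums of 98159 and 114180 against 131602 and 123976, a ratio of 0.831. The genotypes did not overlap for any of these targets. Of all listed sites, 58.4% of H3.3, 54.9% of Pu.1 and 78.9% of H3K9me3 sites were higher. At single sites the H3.3 contrast was wider still, as at chr9:3006851-3015400, with 41757 and 32655 against 754 and 8248.

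The block held no listed H3K9me3 site in Daxx-KO against WT at 8 w.p.i. In DKO, all 11 sites were higher than in WT, but the sums overlapped, at 35577, 55321 and 62994 in DKO and 32126, 38672 and 36408 in WT. As a share of listed counts the block held 5.30% in DKO and 5.67% in WT. Against Daxx-KO all 11 sites were again higher in DKO, with overlapping sums of 32453, 46629 and 62696 against 26501, 25663 and 33853, and there the block held 5.66% of listed counts in DKO and 4.84% in Daxx-KO. The listed H3K9me3 sites covered 21.8% of the block in DKO against WT and 42.4% against Daxx-KO. For H3K27me3 all 15 sites, which covered 49.1% of the block, were higher in DKO than in WT by the mean. The library DKO 1 had the lowest sum of all, 668, beside 7039 and 13550 in the other DKO libraries and 3453 to 4302 in WT. Of all listed sites, 81.2% were higher for H3K9me3 in DKO against WT, 72.9% against Daxx-KO, and 55.1% for H3K27me3 against WT. The sites of the block are stretches of 1 array, so they do not count as separate loci.

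At 24 w.p.i. the block was listed as lower in Daxx-KO for H3K9me3, at 9 of 9 sites, with sums of 2135372 and 1992675 against 2679855 and 2479040. The block then held 17.3% of the listed autosomal H3K9me3 counts in Daxx-KO and 20.1% in WT, and 91.7% of those of the ends. H3K27ac was also lower, at 2 of 2 sites that spanned 99.7% of the block. Its sums were 41573 and 74345 in Daxx-KO against 134895 and 137260 in WT, 2.35-fold lower. Pu.1 was higher at 4 of 4 sites, by a ratio of 1.28 and without overlap, but these sites covered only 6.18% of the block. Over all listed sites 48.1% of H3K9me3, 42.5% of H3K27ac and 48.2% of Pu.1 sites were higher. No H3.3 site was listed there. No library without antibody was analysed here, so the part of the satellite signal that comes from non-specific cutting was not tested.

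**Figure D4:**
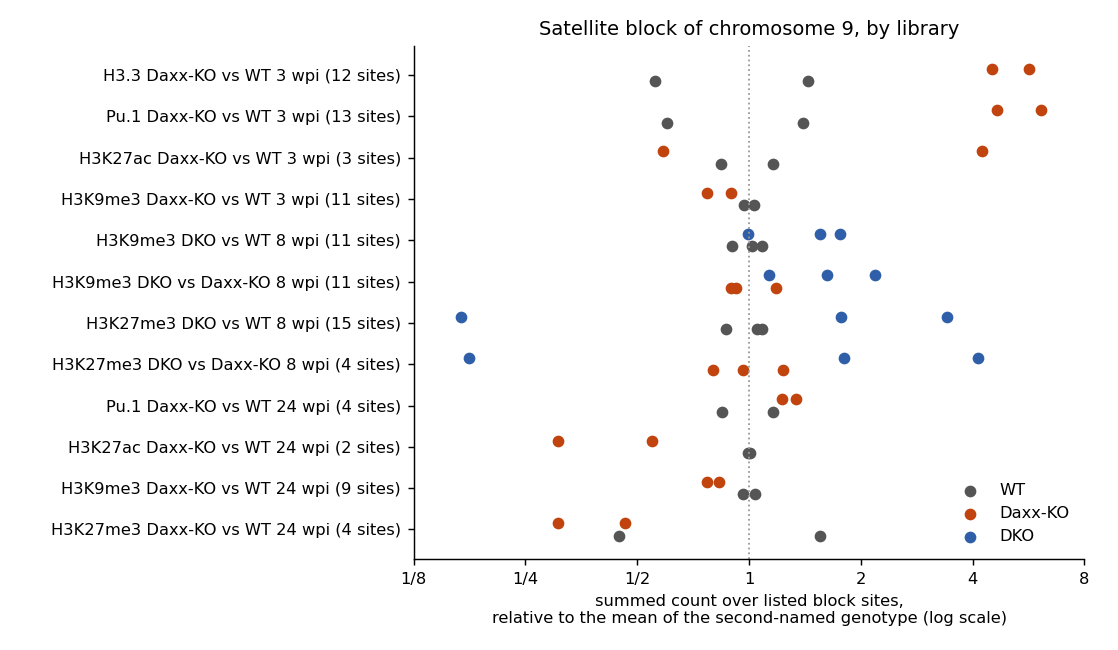
Summed normalized count over the listed sites of the satellite block of chromosome 9, divided by the mean of the second-named genotype (x axis, log scale), for each comparison with a site there (y axis, number of sites in brackets). Points are libraries coloured by genotype. Both Daxx-KO libraries lie over 4 times the WT mean for H3.3 and Pu.1 at 3 w.p.i., and below the WT mean for H3K9me3 at 3 and 24 w.p.i. and H3K27ac at 24 w.p.i.

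A second array, on chromosome 10, was also higher for H3.3 and Pu.1 at 3 w.p.i., and most of its H3K9me3 sites were lower. It lies at chr10:3108901-3117650, outside any gene, with the 74-base unit printed above and 81.3% repeat-masked. H3.3 counts over it were 30834 and 32830 in Daxx-KO against 1260 and 16232 in WT, a ratio of 3.64. Pu.1 counts, at chr10:3110251-3117100, were 31136 and 35643 against 1447 and 19760, a ratio of 3.15. H3K9me3 in its core, chr10:3115551-3116900, was lower by a small step, 5720 and 5560 against 6887 and 5949. Of the 5 H3K9me3 sites listed over the array, 4 were lower and 1 was higher, namely chr10:3115201-3115800 with 1073 and 1107 against 1062 and 1055. WT 1, the deeper WT library, again had the low H3.3 and Pu.1 values.

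Arrays with a period of 200 to 220 bases, near the length of the promoter monomers of young L1 elements, bounds chosen after seeing the data, had similar shares at the ends and elsewhere. At the ends, 13 of 13 such sites were higher for H3.3 and 15 of 15 for Pu.1 at 3 w.p.i., and 0 of 6 for H3K9me3. In the rest of the autosomes it was 933 of 934, 828 of 830 and 0 of 379. At 24 w.p.i. H3K27me3 was higher in Daxx-KO at 0 of 7 of these sites at the ends and at 1 of 402 in the rest.

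The tandem site with the largest H3K9me3 counts in Daxx-KO against WT at 8 w.p.i. was the Cenpo intron array, which was higher in Daxx-KO. There, chr12:4219951-4221650, which is 96.8% repeat-masked, had 141, 90.1 and 72.2 in Daxx-KO against 7.11, 5.06 and 47.5 in WT, a ratio of 5.09. The lowest Daxx-KO library was above the highest WT library. The largest loss of that comparison was at chr13:3372401-3374600, an intergenic site with 28.8% recurring sequence. Its counts were 57.9, 156 and 73.5 in Daxx-KO against 352, 363 and 842 in WT, 5.41-fold lower.

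Sites in an intergenic stretch of chromosome 12, chr12:3109301-3110600, had some of the largest differences for H3.3, Pu.1, H3K27ac and H3K9me3, in both directions. This stretch holds the sequence printed above, but the H3.3 and Pu.1 sites at 3 w.p.i. start past it. The nearest protein-coding start, that of Rab10, is 199993 bases from chr12:3109351-3110600, and 48.4% of the 31-base words of that site recur in the autosomes, so reads of other loci may be counted here. H3K9me3 at chr12:3109301-3109950 was 6583, 11394 and 16507 in DKO and 2195, 5201 and 4323 in WT at 8 w.p.i., a ratio of 2.94. At 24 w.p.i., H3K9me3 at chr12:3109351-3110600 was lower in Daxx-KO, 27397 and 28707 against 47745 and 32983. H3K27ac over the same bases was 998 and 1364 against 3914 and 4745, 3.67-fold lower. Pu.1 at 3 w.p.i. was lower at chr12:3110001-3110600, past the printed bases, with 512 and 711 against 3130 and 3238. At 24 w.p.i. it was higher over a longer site that overlaps this one, chr12:3109351-3110550, with 12354 and 11747 against 5835 and 9060.

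Another locus with many listed sites was Sfi1 on chromosome 11, a gene for a centrosome protein. Near one of its starts, where Drg1 and an antisense gene overlap it, chr11:3192601-3193900 had H3K9me3 counts of 553 and 490 in Daxx-KO against 1032 and 948 in WT at 3 w.p.i., 1.90-fold lower. At 24 w.p.i. an overlapping site, chr11:3192551-3194150, was higher, with 11811 and 12061 against 8130 and 8192. Only 4.88% of the 31-base words of the former recur in the autosomes. Inside the gene, H3.3 at chr11:3133251-3137400 was 2205 and 2818 in Daxx-KO against 216 and 885 in WT at 3 w.p.i., a ratio of 4.56.

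Sequence at the ends recurs more than elsewhere, which matters because a short read from repeated sequence has no single origin. Of the assembled 31-base words at the ends, 31.1% occurred more than once in the autosomes, against 20.4% in the rest. For H3.3 at 3 w.p.i., sites with at least 50% recurring words were higher in Daxx-KO as often at the ends (90.3%) as in the rest (91.3%). For the remaining sites the shares were 64.3% at the ends and 54.6% in the rest, and for Pu.1 61.5 and 50.8%. For H3K9me3 such sites were higher in 75.1% at the ends and 85.4% in the rest at 3 w.p.i., and in 46 and 71.4% at 8 w.p.i. The differences between the ends and the rest were therefore present among sites with under 50% recurring words, a limit chosen after seeing the data. Such sites can still hold recurring words, and the part that reads of repeats play in these differences was not tested.

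H3K9me3 sites at the ends were richer in repeats than those elsewhere. The median repeat-masked share of a site was 75.4% at the ends and 38.2% in the rest at 3 w.p.i., and 63.6 and 35.1% in Daxx-KO against WT at 8 w.p.i. At 24 w.p.i. it was 38.3 and 25.0%. GC content differed little, with medians of 42.8 and 41.1% at 3 w.p.i. Sites within 1 kb of a TSS were a larger part at the ends than in the rest. They made up 3.46 and 1.60% of H3K9me3 sites at 3 w.p.i., 17.7 and 12% of H3.3 sites at 3 w.p.i., and 20.4 and 12.9% of H3K27me3 sites at 24 w.p.i.

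Chromosome 14 was the most repeated of the ends, with 96.0% of its 31-base words recurring, where the annotation places many predicted Gm genes. At 3 w.p.i., 65 of 65 H3.3 sites and 84 of 84 Pu.1 sites of this end were higher in Daxx-KO. Their summed counts were 3820 and 4046 against 382 and 1517 for H3.3, and 6612 and 6076 against 679 and 2369 for Pu.1. Over all listed sites 58.4% of H3.3 and 54.9% of Pu.1 sites were higher. Among sites of the rest with at least 50% recurring words it was 91.3 and 90.9%. The summed H3K9me3 counts of this end were higher as well, unlike at the satellite, with 977 and 1023 against 485 and 458. Of its H3K9me3 sites 57 of 67 were higher (85.1%), near the 81.4% in the rest of chromosome 14 and the 78.9% of all listed sites. In DKO at 8 w.p.i., 99 of 99 H3K9me3 sites of this end were higher than in WT, where 81.2% of all listed sites were higher. Their sums were 1530, 2235 and 1681 against 468, 512 and 616, a ratio of 3.41. H3K27me3 was lower there in DKO, at 16 of 17 sites, with 670, 515 and 479 against 1239, 1106 and 1142. Over all listed H3K27me3 sites of that comparison 55.1% were higher in DKO.

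**Figure D5:**
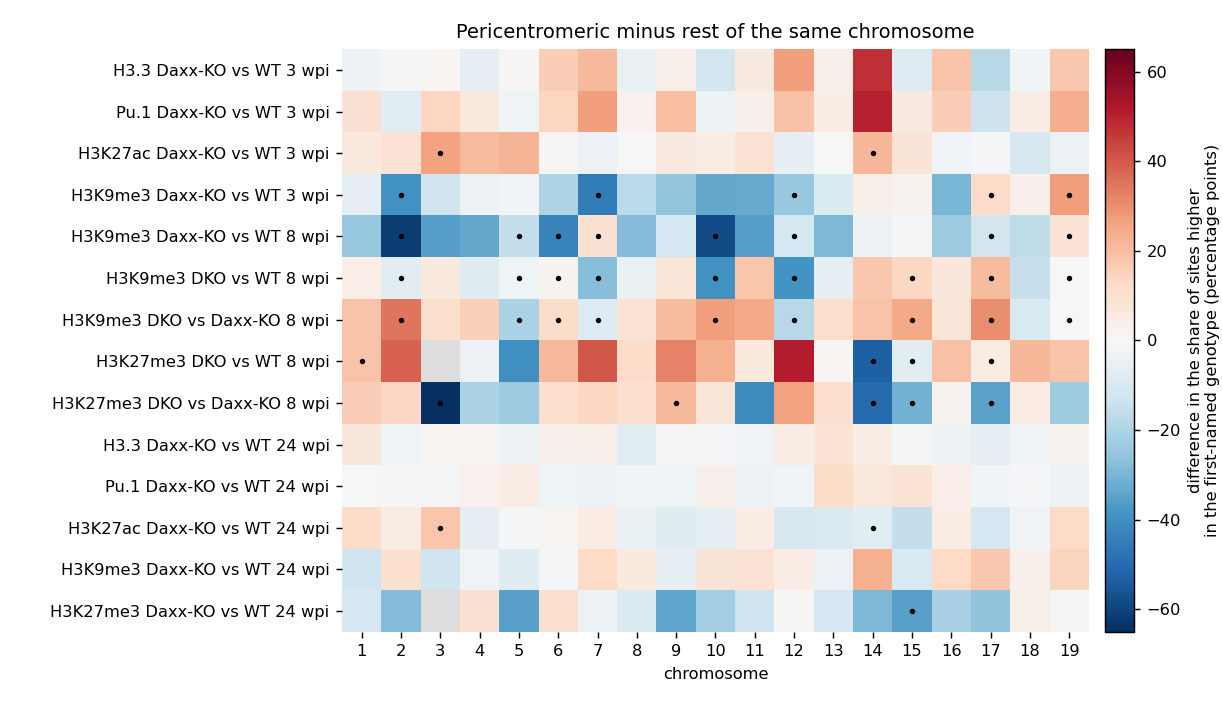
Share of sites higher in the first-named genotype at the pericentromeric end minus the share in the remainder of the same chromosome (colour, percentage points), by comparison (y axis) and chromosome (x axis). Dots mark ends with under 20 sites and grey cells ends with none. Chromosome 14 gave the largest excess for H3.3 and Pu.1 at 3 w.p.i., and H3K9me3 in Daxx-KO at 8 w.p.i. was below the remainder on 17 of 19 chromosomes.

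The H3K9me3 comparisons of Daxx-KO with WT at 3, 8 and 24 w.p.i. share no library. Of the sites at the ends, 96 of 694 at 3 w.p.i. (13.8%) overlapped 98 of 668 at 8 w.p.i. (14.7%). In 83 of the 103 overlapping pairs (80.6%) the direction was the same, 33 higher and 50 lower at both times. In the rest of the autosomes it was the same in 77.9% of pairs. From 8 to 24 w.p.i., 143 of 212 pairs (67.5%) at the ends had the same direction, 97 of them lower at both times, beside 60.0% in the rest. The chance part of these shares was not tested.

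The ends hold 450 protein-coding genes, and their promoters mostly went the way of promoters elsewhere. At 3 w.p.i., 256 of them had an H3.3 site within 1 kb of a TSS, all higher in Daxx-KO for 189 genes (73.8%) and all lower for 28. Among 10308 such genes of the rest of the autosomes, 66.5% had higher sites alone. For Pu.1 it was 192 genes with higher sites alone (74.1%, beside 65.8% in the rest) and 33 with lower sites alone, of 259 genes. For H3K27ac the order was the other way, with 48 and 115 of 190 genes, and 60.5% with lower sites alone at the ends beside 64.8% in the rest. At 24 w.p.i. H3.3 was balanced, at 96 and 83 of 240 genes. H3K27me3 then had lower sites alone at 176 of 240 genes (73.3%) and higher sites alone at 38, where 70.1% of genes in the rest had lower sites alone. H3K9me3 was seldom at promoters at 3 and 8 w.p.i., with 18 and 9 genes in Daxx-KO against WT. At 3 w.p.i. 4 of the 18 genes had higher sites alone (22.2%), beside 69.2% of 827 genes in the rest. Of these 18 genes 7 were predicted Gm genes, 6 of them with lower sites alone.

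Regulators of chromatin, DNA methylation and transcription formed one list. Of its 20 symbols 18 are at the ends, and the other two are older symbols of Kmt5b and Kmt5c. Transcription factors such as Esr1, Glis2, Hnf4g, Plag1 and Sox17 are among its members. At 3 w.p.i. their bodies and promoters held 111 H3.3 sites that were higher and 36 that were lower (75.5% higher). Over all H3.3 sites in genes or at promoters the share was 72.7% at the ends and 62.4% in the rest, and over promoter sites alone 81.6 and 76.3%. At 24 w.p.i. the list had 12 H3K27me3 sites higher and 39 lower (23.5% higher), beside 33.4% of such sites at the ends, 41.2% in the rest, and 25.2 and 30.3% of promoter sites. Kmt5b, an enzyme that places H4K20 methylation in pericentromeric heterochromatin, had 7 H3.3 sites, all higher, at 3 w.p.i. At its promoter (chr19:3768301-3769400) the H3.3 counts were 72.7 and 90.6 in Daxx-KO against 36.5 and 28.8 in WT. At 24 w.p.i. all 8 of its Pu.1 sites were lower, as at chr19:3766951-3767850 with 4.09 and 0 against 86.4 and 65.3. Among all listed Pu.1 sites 48.2% were higher then, and among those of the list 47.9%. H3K27ac at the Kmt5b promoter was higher then, 2139 and 2264 against 1509 and 1062.

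Dnmt3a, a de novo DNA methyltransferase often mutated in clonal haematopoiesis, carried many sites within 1 kb of one of its annotated starts, 33 higher and 18 lower over the tables. Its H3.3 sites at 3 w.p.i. went both ways, with 22.1 and 26.5 against 84.1 and 68.1 at chr12:3805601-3806750 and 45.8 and 108 against 15.4 and 5.24 at chr12:3806651-3807800. Crebbp, a histone acetyltransferase, had promoter H3K27ac of 972 and 969 in Daxx-KO against 493 and 444 in WT at 24 w.p.i. (chr16:4212851-4215250). The list as a whole had 129 H3K27ac sites higher and 179 lower then (41.9% higher). Arid1b, a subunit of the BAF remodeller, and Esr1, the oestrogen receptor, had 7 and 8 H3K27me3 sites at 24 w.p.i., all lower in Daxx-KO. Lower sites were common then, as 41.2% of all listed H3K27me3 sites, 31.4% of those at the ends and 23.5% of those of the list were higher. Arid1b runs from 4994332 to 5347656 on chromosome 17, so nearly all of it lies past 5 Mb. Plag1, a zinc-finger transcription factor, had 10 H3K27me3 sites in DKO against WT, all higher. They were small, as at chr4:3937201-3937950 with 34.0, 22.7 and 28.3 against 11.4, 10.9 and 11.2. In that comparison 55.1% of all listed sites and 73.4% of those at the ends were higher in DKO, and the list had 17 higher and 0 lower. Against Daxx-KO, Plag1 had 3 H3K27me3 sites, all lower in DKO, where 65.0% of all listed sites were higher. The list then had 1 higher and 8 lower.

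Genes of blood and immune signalling formed the other list, with 29 of 32 symbols at the ends. H3.3 was higher at 102 of their sites and lower at 44 at 3 w.p.i. (69.9% higher), close to the 69.2% of all H3.3 sites at the ends. Of H3.3 sites in genes or at promoters at the ends 72.7% were higher, and of promoter sites 81.6%. H3K27me3 was higher at 12 and lower at 41 at 24 w.p.i. (22.6% higher), beside 31.4% of all H3K27me3 sites at the ends. It was 33.4% for those in genes or at promoters, and 25.2% for promoter sites alone, close to the list. Osm, an inflammatory cytokine of the IL-6 family, had the largest H3K27ac gain of the ends at 24 w.p.i. Over chr11:4233901-4241250 the counts were 13589 and 11313 in Daxx-KO against 5911 and 5125 in WT, a ratio of 2.26. H3K27ac near its start was already higher at 3 w.p.i., 130 and 118 against 36.5 and 73.9 at chr11:4234851-4235850. Pu.1 just upstream was lower at both times, 42.5 and 37.3 against 100.3 and 70.3 at 3 w.p.i. and 23.2 and 0 against 97.9 and 98.9 at 24 w.p.i. Inside the gene, at chr11:4237051-4237800, Pu.1 was higher at 3 w.p.i., 118 and 40.5 against 32.9 and 32.

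Cdk6 showed gains around the CpG-rich start printed above. H3K27ac over chr5:3340301-3345700 was 7303 and 7872 in Daxx-KO against 3722 and 3793 in WT at 24 w.p.i., a ratio of 2.02. Pu.1 at chr5:3342301-3343150 was 241 and 79.4 against 24.5 and 8.42. At 3 w.p.i. H3.3 was higher at 3 neighbouring sites, for example 132 and 61.9 against 27.3 and 15.7 at chr5:3340851-3342000. An H3K27ac site inside the gene, chr5:3500501-3502750, was the largest gain of the ends for that mark at 3 w.p.i., with 503 and 981 against 409 and 303.

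Nlrp12, a regulator of innate immune signalling, had 1641 and 1609 H3K27ac counts at its start (chr7:3247601-3250650) in Daxx-KO at 24 w.p.i., against 733 and 805 in WT. Its H3K27me3 at chr7:3249401-3250150 was 48.7 and 40.5 against 88.7 and 84.2. Unc93b1, which escorts endosomal Toll-like receptors, had H3.3 of 213 and 186 against 100.3 and 13.1 at 3 w.p.i. (chr19:3934501-3935900). At 24 w.p.i. H3K27me3 at its start was 101 and 73.6 against 405 and 297, and H3K27ac 2874 and 2478 against 1802 and 1567. Clcf1, another IL-6-family cytokine, had the largest H3K27me3 gain in DKO (chr19:4210801-4218150, which also covers the predicted gene AC109138.7), with 2819, 342 and 366 against 317, 216 and 277 in WT. That difference rested largely on DKO 1. Ghr, the growth hormone receptor, had lower H3K27me3 in DKO than in WT at chr15:3581301-3582600, with 81.5, 62.9 and 51.2 against 167, 139 and 170. The bulk of HSPCs was measured, so a change in the share of one cell type within them and a change within each cell cannot be told apart.

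Gene families that cluster near centromeres were few. The ends hold 7 Zfp genes, 2 Olfr genes, 3 Vmn genes, 3 genes of the Pira and Lilr receptors and 61 Gm genes. The Gm genes had 75 H3.3 sites higher and 7 lower at 3 w.p.i. (91.5% higher), close to the 91.3% of sites with at least 50% recurring words in the rest of the autosomes. They had 45 H3K9me3 sites higher and 0 lower in DKO against WT, where 81.2% of all listed sites were higher. The Zfp genes had 10 H3.3 sites higher and 1 lower at 3 w.p.i. (90.9% higher). At the ends, 72.7% of all H3.3 sites in genes or at promoters were higher, and 81.6% of promoter sites. The Vmn genes had no listed H3.3 site then.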

How the data were processed

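CUT&Tag libraries of HSPCs were grouped by the genotype, target and time in the labels. Of 62 libraries, 54 are in the 14 tables used, and 8 DKO libraries at 24 w.p.i. were not analysed here. The submitters' processing notes name CASAVA 1.8.4, cutadapt 1.13, STAR 2.5.3, bedtools and mm10. The treatment of reads that map to several places is not given in the sources used here. Per the file headers, the authors ran diffReps 1.55.6 (windows of 600 bp, steps of 50 bp, fragments of 100 bp, negative binomial test, p cutoff 0.0001) and listed the sites that passed. For 24 w.p.i. the tables hold no sites on X or Y. The deposited values used are normalized counts, the reads of a library in a site divided by a constant, a score that need not be whole. The tables' own fold changes, averages and p-values were not used.

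The mean normalized count over libraries gave each site its direction. Sites below 5 Mb were compared with the remaining autosomal sites with 95% Wilson intervals. The share of each library's counts below 5 Mb was compared between genotypes as a value. A two-sided exact permutation test over libraries had been planned and was run, but its p-values are not given, since the sites were listed for differing between the same libraries and 2 or 3 libraries per genotype cannot reach 0.05. A 31-base word was recurring if it occurred more than once in the autosomes on either strand. Tandem periods were the lags of 20 to 400 bases with the best self-match, and sites with at least 70% self-match were called tandem. Genes and TSSs came from GENCODE M21. Scripts ran in Python 3.11.15 (scipy 1.17.1, numpy 2.4.6, pandas 2.3.3), and functions were tested on simulated data.

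The sites named are, in each table and direction, those with the largest difference between group means among sites whose groups do not overlap, and the tandem sites with the largest counts. The same choice outside the satellite block and among sites with under 50% recurring words was added after their values were seen. The genes named are list members with sites within 1 kb of a TSS in at least 3 tables, or with 3 or more sites of one direction in a table. The members and lists were chosen with earlier results of these data known. Replicate numbers were shared between genotypes but name different mice. Alternatives were a limit of 4 Mb, 2-fold sites, a minimum mean of 20, merged sites, no tandem sites, GC weighting, within-chromosome means, each library left out and a replicate block.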

Additional observations from a re-analysis of the deposited data

How the results depend on the processing

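Replicate numbers name different mice. Own-number correlations of the deviations ran from -0.0966 to 0.112 in the 5 comparisons at 8 w.p.i. and from -0.131 to 0.0865 in the 9 comparisons of 2 pairs, so the numbers were not taken to pair the libraries. A replicate block leaves a library-share difference as it is by construction (-0.746 for H3K9me3 in Daxx-KO against WT at 8 w.p.i.), so it says nothing on stability, and crossed numbers for H3K9me3 at 24 w.p.i. gave no call either. The limits are the few libraries per genotype, their unequal depth, and reads of repeats, whose placement is not known. Causes of the changes below were not tested.

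The difference in the share of higher sites (ends minus rest, percentage points) kept its sign under most settings. As the mean within chromosomes it was 5.78 for H3.3 and 10.3 for Pu.1 at 3 w.p.i., -2.77 for H3K9me3 in DKO against WT, 11.4 and -7.93 for H3K27me3 in DKO against WT and Daxx-KO, and -0.868 for H3K27ac and -14.2 for H3K27me3 at 24 w.p.i. Against the sites from 5 to 10 Mb, chosen after seeing the data, it was 7.84, 7.50, 0.0962 and -8.39 for H3.3, Pu.1, H3K27ac and H3K9me3 at 3 w.p.i., -5.43, 7.66 and 7.38 for the H3K9me3 comparisons of Daxx-KO with WT, DKO with WT and DKO with Daxx-KO at 8 w.p.i., and -1.38 for Pu.1 at 24 w.p.i. Below 4 Mb it was 15.5 for Pu.1 and 5.88 for H3K27ac at 3 w.p.i. and -14.2 for H3K27me3 at 24 w.p.i. With a minimum mean of 20 it was 6.01 for H3K27ac and -25.4 for H3K9me3 at 3 w.p.i. and -30.5 for H3K9me3 at 8 w.p.i. GC weighting gave -6.83, 7.85, 17.1 and 1.60 for H3K9me3 (3 w.p.i., DKO against WT, DKO against Daxx-KO, 24 w.p.i.) and 13.7 for H3K27me3 in DKO against WT. Sites with under 50% recurring words, also chosen after seeing the data, gave 10.8 for Pu.1 at 3 w.p.i. and 5.18 for H3K9me3 in DKO against WT. Non-overlapping sites gave 17.7 for H3K9me3 in DKO against Daxx-KO.

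The density ratio below 4 Mb was 0.886, 0.741 and 0.918 for H3K9me3 in Daxx-KO at 3, 8 and 24 w.p.i., 0.713 and 0.706 for H3K27me3 in DKO against WT and at 24 w.p.i., and turned to 1.12 for H3K9me3 in DKO against both WT and Daxx-KO. With a minimum mean of 20 it was 1.17 for H3K27ac and 0.855 for H3K9me3 at 3 w.p.i. For sites of at least 2-fold it was 1.05, 0.787 and 0.818 for H3K27ac, H3K9me3 and H3K27me3 at 24 w.p.i.

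The library-share difference (percentage points) turned to -0.0122 below 4 Mb for H3K27me3 in DKO against Daxx-KO. Without the satellite block, chosen after seeing the data, it turned to 0.127 for H3K27ac and 0.253 for H3K9me3 at 24 w.p.i. Leaving out each library gave -1.42 (without DKO 3; -0.0227 without WT 1) to 1.85 for H3K9me3 in DKO against WT, -0.304 (without DKO 3) to 4.77 against Daxx-KO, -0.0227 (without DKO 2) to 0.0767 for H3K27me3 in DKO against Daxx-KO, 0.335 (without DKO 3) to 0.805 for H3K27me3 in DKO against WT, -4.25 to -0.821 (without Daxx-KO 2) for H3K9me3 at 24 w.p.i., and 0.00237 (without WT 1) to 0.0767 for Pu.1 at 24 w.p.i. Without the block the 3 w.p.i. differences were 0.671 for H3.3, 0.732 for Pu.1 and -0.751 for H3K9me3.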
